A study of Mus musculus with 2 samples.

Results

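Mir126a and Mir126b are microRNA genes that overlap on mouse chromosome 2, one on each strand, inside Egfl7. They were taken as the rows of the deposited microRNA tables whose Ensembl identifiers carry these names in GENCODE vM21, and they are 2 of the 2202 microRNA genes listed. Small RNA under 30 nt was sequenced from gastrocnemius, the large muscle of the calf, of male B6CASTF1/J mice aged 14 days. The labels give 1 group with 2 biological replicates and 1 library for each, with no treatment or altered allele. They give both replicates the same donor identifier and mention several males without saying if animals were pooled within a replicate. The spread and the p-values below therefore describe these 2 libraries, and part of that spread may be technical.

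MicroRNAs are cut from a hairpin RNA, and 1 arm of the hairpin is loaded into a silencing complex that represses messenger RNAs matching the seed, the bases at positions 2 to 8 of the mature strand. miR-126 is a microRNA of endothelial cells, the cells that line blood vessels. Its host Egfl7 encodes a secreted protein of the same cells. In mouse and zebrafish, miR-126 supports signalling by vascular endothelial growth factor and the integrity of vessels by repressing Spred1 and Pik3r2, inhibitors of that pathway. Skeletal muscle is rich in capillaries, so its RNA includes that of endothelium.

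The sequences are shown because the genes overlap on opposite strands, so that the strand of a read assigns it to one or the other. The 3 mature strands listed for the pair are given 5′ to 3′ with the seed in capitals, as RefSeq has them on GRCm38.p6, the same assembly as mm10.
miR-126a-3p: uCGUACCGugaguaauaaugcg
miR-126b-3p: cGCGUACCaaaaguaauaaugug
miR-126b-5p: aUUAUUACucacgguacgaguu
miR-126a-3p lies at chr2:26591402-26591423 on the plus strand. miR-126b-3p lies at chr2:26591363-26591385 and miR-126b-5p at chr2:26591399-26591420, both on the minus strand. The 3 seeds differ, and 0 of the other mature strands among the 1738 in the RefSeq table carry any of them. The other arm of Mir126a gives miR-126a-5p, which was not used here and is in lower case in the hairpin.

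The hairpins are printed with these mature strands in capitals. Mir126a (ENSMUSG00000065540.1) spans 73 bases at chr2:26591357-26591429 on the plus strand. Mir126b (ENSMUSG00000105799.1) spans 58 bases at chr2:26591363-26591420 on the minus strand, covers 79.5% of Mir126a and is the reverse complement of those bases.
Mir126a: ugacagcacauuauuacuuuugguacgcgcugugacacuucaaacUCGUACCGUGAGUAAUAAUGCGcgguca
Mir126b: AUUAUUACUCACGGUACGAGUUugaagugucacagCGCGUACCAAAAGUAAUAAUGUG
A stretch of 19 bases of miR-126a-3p is fully complementary to miR-126b-5p. Against miR-126b-3p, miR-126a-3p could be aligned over 22 bases, of which 17 were identical and 5 differed. The same mature strands are shown again with the 5 differing bases in capitals.
miR-126a-3p: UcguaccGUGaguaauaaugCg
miR-126b-3p: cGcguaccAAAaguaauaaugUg
Neither hairpin shares 20 consecutive bases with an annotated microRNA hairpin elsewhere, whereas 1087 of the 2202 hairpins do. Genes that overlap each other were not compared. The tables leave multi-mapped reads out of all genes, and matches elsewhere in the genome were not tested.

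Mir126a starts 11343 bases after the annotated start of Egfl7 (ENSMUSG00000026921.18, chr2:26580014-26593120, plus strand) and ends 1691 bases before its end. Of 19 annotated Egfl7 transcripts, 9 span the hairpin. In 8 of these it lies in an intron, and 7 of the 8 are protein coding. In Egfl7-212, the coding transcript with the longest genomic span, that intron is number 7 of a transcript with 10 exons and runs from 26591064 to 26591663. The hairpin is exonic in 1 transcript, Egfl7-206, in exon 4, and that transcript is annotated as a retained intron. Mir126b lies antisense to Egfl7 within the same intron.

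Mir126a was the second most abundant microRNA gene in both libraries by assigned counts, and Mir126b was barely detected. The tables count hairpins, so the arms of each gene are not separated. On its own strand Mir126a had 177856 counts in replicate 2 and 269116 in replicate 1. These were 80432 counts-per-million (CPM, scaled by the library's sum over all microRNA genes) in replicate 2 and 98087 CPM in replicate 1. The mean was 89259 CPM ± 12484 (SD, n = 2). Mir126a thus took 8.04% of gene counts in replicate 2 (Wilson 95% limits 8.01 and 8.08). In replicate 1 it took 9.81% (limits 9.77 and 9.84). The intervals do not overlap, and they cover counting error only, since reads copied by PCR are not independent molecules.

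Mir126b had 4 counts on its own strand in replicate 2 and 4 in replicate 1. That is 1.81 CPM in replicate 2 (exact Poisson interval 0.493 to 4.63) and 1.46 CPM in replicate 1 (0.397 to 3.73), a mean of 1.63 CPM ± 0.248 (SD, n = 2). The exact binomial test between the libraries gave p = 1 for this gene. The limit that a count of 0 allows (3 counts) was 1.36 CPM in replicate 2 and 1.09 CPM in replicate 1. Mir126b was rank 362 of 547 genes with a count in replicate 2 and rank 360 of 550 in replicate 1. Mir126a exceeded it 44464-fold in replicate 2 (counting interval 17366 to 163191) and 67279-fold in replicate 1 (26277 to 246926). Over both libraries the minus strand held 0.00179% of the counts of the pair (95% Wilson interval 0.000907 to 0.00353).

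The tables count each gene by reads on its own strand, on the opposite strand and on either strand. Mir126a had 4 counts on the opposite strand in each library, the same number as Mir126b had on its own. Mir126b had 177855 counts on the opposite strand in replicate 2 and 269115 in replicate 1, which is 1 fewer in each than Mir126a had on its own strand. With either strand counted, a read under both genes is ambiguous and is left out. Mir126a then kept 1 count in each library and Mir126b kept 0. A table of counts on either strand would therefore put the second most abundant microRNA gene below the 3 counts that a reading of 0 still permits.

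**Figure D1:**
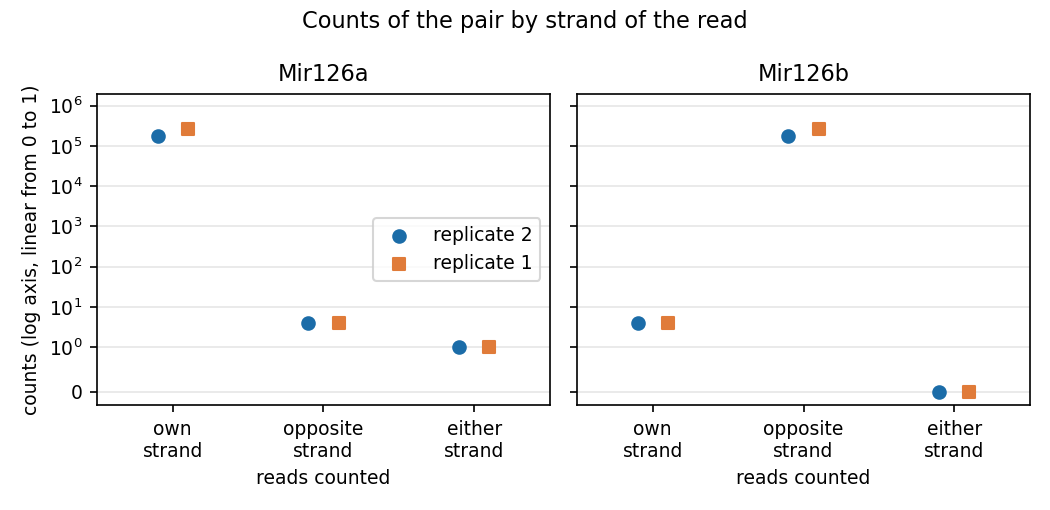
Counts of Mir126a (left) and Mir126b (right) in reads on the gene's own strand, on the opposite strand and on either strand, 1 point per library, on a log axis that is linear from 0 to 1. Mir126a sits at 177856 and 269116 counts on its own strand and at 1 count in each library with either strand counted.

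The loss through ambiguity was large at the scale of the whole library. Counting either strand made 508345 reads ambiguous in replicate 2 and 647240 in replicate 1, against 0 on the own strand. The Mir126 pair held 35.0% of them in replicate 2 and 41.6% in replicate 1. With Mir378a, the most abundant gene, whose opposite strand also carries a microRNA gene, the share was 88.8% in replicate 2 and 88.6% in replicate 1. The 64 genes with an opposite-strand partner accounted for all of the ambiguous reads in both libraries.

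The 8 minus-strand counts of Mir126b were set beside the opposite-strand counts of genes that have no annotated partner. For Mir126a the rate was 2.25 opposite-strand counts per 100000 own-strand counts in replicate 2 and 1.49 in replicate 1. Over the 2138 genes with no partner it was 1.76 in replicate 2 and 1.38 in replicate 1. Over both libraries the rate of Mir126a was 1.79 (exact Poisson interval 0.773 to 3.53) and that of the genes without a partner was 1.55, which lies within the interval. The background was not even across genes. The 9 genes with no partner and 100000 or more counts over both libraries, led by Mir127 and Mir206, had 0 opposite-strand counts against 1982734 on their own strand, which allows a rate of up to 0.151. Among genes without a partner, Mir130a and Mir708 had the most opposite-strand counts, 8 each. Mir200a had 5 against 1 on its own strand and Mir5620 had 3 against 4, so this background did not follow own-strand level. At this depth the counts of Mir126b could not be told apart from the pooled opposite-strand rate of genes without a partner. They did exceed the limit for the most abundant of those genes.

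Pairs of microRNA genes on opposite strands were mostly one-sided. Of 32 such pairs, 27 had a count and 8 had counts on both genes. Of the 22 pairs with 100 or more counts, 20 had over 99% on 1 gene. In the Mir126 pair Mir126a held 99.998% of the counts. In 14 of the 22 the lower gene had 0 counts. For Mir378a that 0 allows up to 0.519 counts per 100000 on the higher gene (3 counts), below the rate of the Mir126 pair. For the other 13 it allows 11.3 to 489, so at their depth they could not be ordered against the Mir126 pair. Among the 8 pairs with counts on both genes, the Mir126 pair was the most one-sided. By counts the pairs in front were Mir378a with Gm25301 (577790 and 0 counts over both libraries), Mir126a with Mir126b (446972 and 8), Mir191 with Gm24083 (26589 and 0), Mir299a with Mir299b (22809 and 12) and Mir30e with Mir30f (17200 and 0). The Mir299 pair had 52.6 counts on the lower gene per 100000 on the higher, against 1.79 for the Mir126 pair. Mir24-1 and Mir3074-1, chosen after their values were seen, were the most even pair, with 178 and 52 counts.

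**Figure D2:**
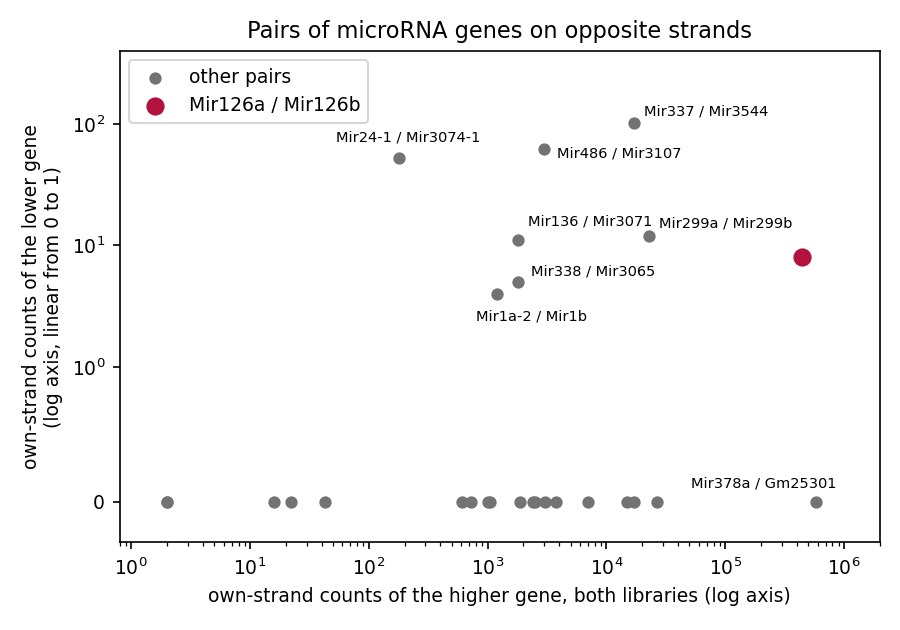
Own-strand counts of the higher gene (log axis) and of the lower gene (log axis, linear from 0 to 1) in the 27 pairs of microRNA genes on opposite strands that had a count, summed over both libraries. The Mir126 pair sits far to the right at 8 counts on its lower gene, and 19 pairs lie at 0.

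The level of Mir126a was next placed among the other abundant genes. The order holds among reads assigned to 1 gene only, since multi-mapped reads, 52.1% of replicate 2 and 44.0% of replicate 1, are left out and could raise genes that share sequence. A small RNA read covers a whole mature strand, so CPM is not divided by length here; by CPM per base of annotated hairpin Mir126a was also rank 2. Mir378a, a microRNA in an intron of the metabolic coactivator gene Ppargc1b, was the only gene above it in this order, with 123636 CPM in replicate 2 and 110946 CPM in replicate 1. Mir126a stood at 0.651 times Mir378a in replicate 2 and at 0.884 times in replicate 1. The ranges of the 2 genes did not overlap.

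Mir127, a maternally expressed microRNA of the imprinted Dlk1-Dio3 region, came next below with 77393 CPM in replicate 2 and 73627 CPM in replicate 1. Mir126a exceeded it by 3039 CPM in replicate 2 and by 24460 CPM in replicate 1. The ranges did not overlap, but the mean difference of 13750 CPM was little more than 1 SD of Mir126a, so the order of these neighbours rests on a narrow gap in replicate 2. The skeletal muscle microRNA Mir206 stood at 67909 CPM in replicate 2, against 68288 CPM in replicate 1, and Mir126a stood at 1.18 and 1.44 times it. Mir411 had 50909 and 59680 CPM and Mirlet7i 53185 and 46925 CPM in the same order. With 2 libraries no test of these orders over samples was run.

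**Figure D3:**
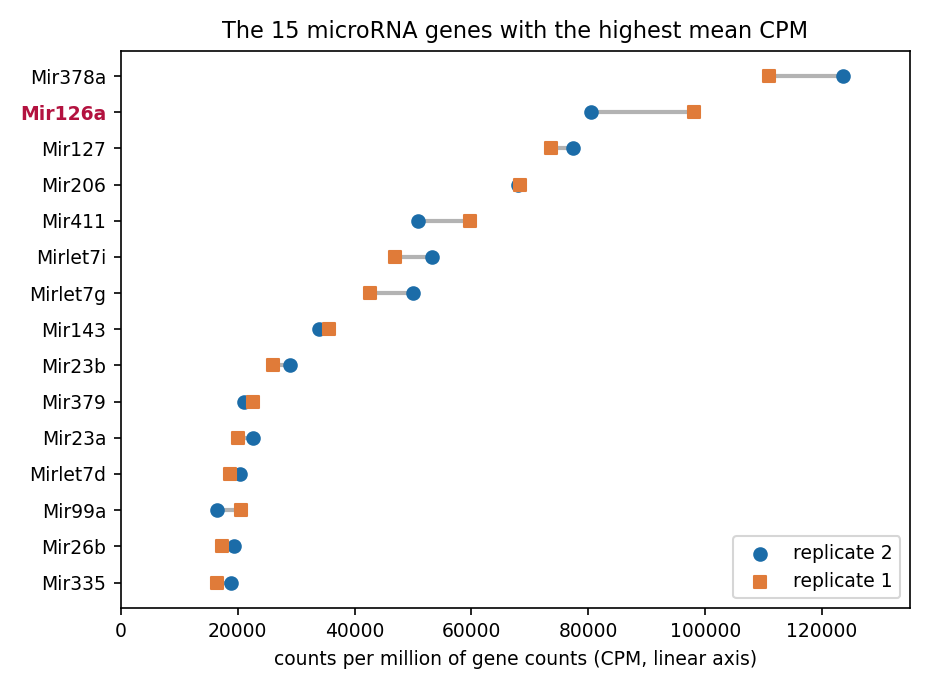
CPM (linear axis) of the 15 microRNA genes with the highest mean, 1 point per library, with a line joining the libraries. Mir126a is second, and its points at 80432 and 98087 CPM lie further apart than those of any other gene shown.

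The muscle origin of the libraries was checked by myomiRs, microRNAs of striated muscle. All 10 on the list used had a count in at least 1 library, and together they held 6.92% of gene counts in replicate 2 and 6.95% in replicate 1. Mir206 alone was 98.2% of these counts, so the check rests on that gene. Mir1a-2 reached 294 CPM in replicate 2, against 198 CPM in replicate 1, and Mir1a-1 had 9.50 and 14.9 CPM in the same order. Mir133b had 31.7 and 20.8 CPM, Mir133a-1 15.8 and 18.2 CPM, and Mir133a-2 1.81 and 1.82 CPM. These 5 genes of the miR-1 and miR-133 families share 20 bases with other microRNA loci, and multi-mapped reads are not in their counts. Mir486 (650 and 572 CPM), Mir499 (217 and 338 CPM) and Mir208b (84.1 and 84.6 CPM) share no such stretch with a locus elsewhere. Mir486 overlaps Mir3107 on the opposite strand (3006 and 62 counts over both libraries), and overlapping genes were not compared. Whether multi-mapped reads are missing from Mir486 was therefore not tested. Mir486, Mir499 and Mir208b too were far below Mir206. The cardiac Mir208a had 0 counts in replicate 2 and 7 in replicate 1.

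The level of Mir126a depends on what it is scaled by. Of all mapped reads, multi-mapped ones included, Mir126a was 2.66% in replicate 2 and 3.61% in replicate 1. Of all reads it was 2.17% in replicate 2 and 2.68% in replicate 1. Replicate 2 was the lower library on each of these scales. Since Mir126a holds so much of the total, leaving it out raises the CPM of every other gene 1.09-fold in replicate 2 and 1.11-fold in replicate 1.

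Mir126a was lower in replicate 2 than in replicate 1. The libraries were compared over the 258 genes that reached 10 CPM in each, with a two-sided exact binomial test on sizes scaled by edgeR's trimmed mean of M-values (TMM) and Benjamini-Hochberg adjustment. The log2 ratio of Mir126a, replicate 2 minus replicate 1 on log2(CPM + 1), was −0.33 (exact interval −0.34 to −0.32, adjusted p = 8.60e-299 by the exact binomial test; raw p values were written no smaller than 1e-300). On that scale replicate 2 stood at 0.794 times replicate 1. That test covers counting error only and compares these libraries. It called 50.8% of the tested genes, 82 lower (31.8%) and 49 higher (19.0%) in replicate 2, or 66 lower (25.6%) and 67 higher (26.0%) when total counts set the library sizes, so a call is no mark of Mir126a.

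edgeR's exact test, with a common biological coefficient of variation of 12.8% from an intercept-only fit, gave p = 0.205 for Mir126a and adjusted p = 0.984. That coefficient was estimated from the differences between these same 2 libraries, so the test only sets Mir126a against the spread of all genes between them. It does not show whether the difference lies within the spread between animals. By that test 3 genes were called (1.16%), and 15 had an unadjusted p under 0.05. Of the 258 genes, 60 (23.3%) had a larger absolute log2 ratio than Mir126a. Among abundant genes its ratio lay nearer the edge. Of the 24 genes that reached 10000 CPM in each library, Mir10b (−0.40) and Mir99a (−0.37) had larger absolute ratios, and the median absolute ratio was 0.12. Among the 15 most abundant genes the coefficient of variation of CPM was 14.0% for Mir126a, exceeded by Mir99a at 15.9%, with a median of 7.78% and a lowest value of 0.393% for Mir206.

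Marker lists of other cells were set beside this difference. The vessel wall list, Mir143 and the Mir145 genes of smooth muscle, held 3.49% of gene counts in replicate 2 and 3.67% in replicate 1. Of its 3 members, 2 had a count and Mir145b was at 0. Mir143 was 97.2% of this list by mean CPM, so its share is close to that of 1 gene. By the exact binomial test Mir143 was lower in replicate 2 (log2 ratio −0.12) and Mir145a did not pass (−0.04, adjusted p = 0.485). The connective tissue list, led by Mir214, held 0.378% in replicate 2 and 0.482% in replicate 1, with all 4 members detected. Mir214 was 98.1% of this list by mean CPM. The other 3 members share 20 bases with other microRNA loci, so multi-mapped reads may be missing from their counts. The erythroid list, led by Mir451a, held 0.0571% in replicate 2 and 0.0384% in replicate 1, with Mir451b at 0. The leukocyte list, led by Mir146, held 0.155% in each, with Mir142b at 0. Of its members, 2 share 20 bases with another microRNA locus, with the same limit. Unmapped reads were 18.2% of replicate 2 and 25.9% of replicate 1. The part of these differences in the level of Mir126a was not tested. In RNA from whole muscle, fewer endothelial cells and less Mir126a per cell cannot be told apart. Against the vessel wall gene Mir143, Mir126a stood at 2.37 times in replicate 2 and 2.75 times in replicate 1.

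**Figure D4:**
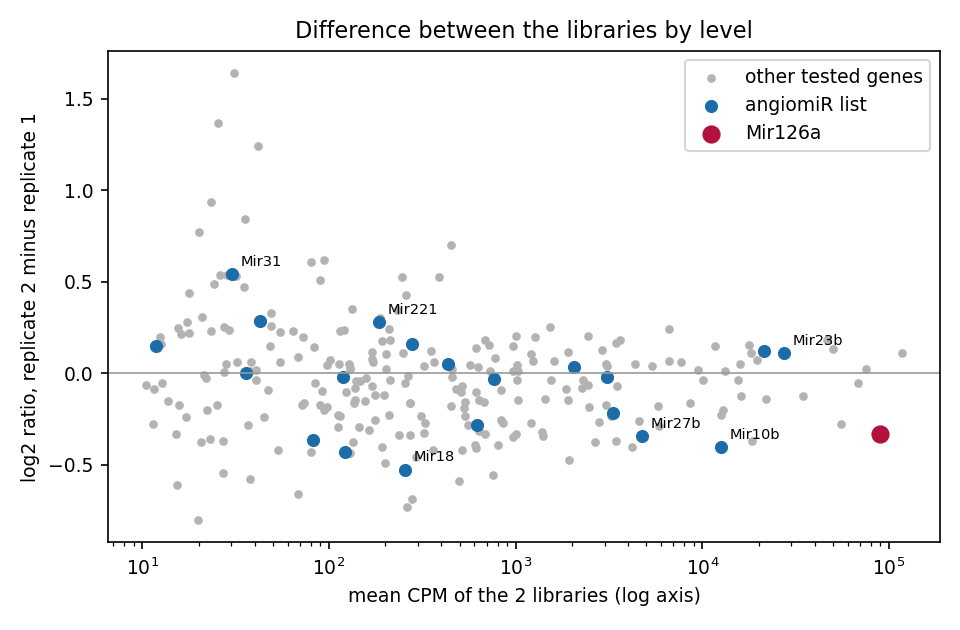
The log2 ratio between the libraries (replicate 2 minus replicate 1) by mean CPM (log axis) for the 258 tested genes, with Mir126a and the angiomiR list marked. Mir126a lies at −0.33 at the right edge, where the spread of the other genes is narrow, and members of the list lie on both sides of 0.

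The genes whose ratio was closest to that of Mir126a were found among the 70 other genes that reached 1000 CPM in each library. Likeness was the absolute difference of log2 ratios over the 2 libraries. The closest were Mir27b (−0.34, a difference of 0.0097), Mir409 (−0.34), Mir99b (−0.32), Mir30e (−0.37) and Mir99a (−0.37). With 2 libraries such likeness is a single number per gene.

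Mir126a was then set among angiomiRs, microRNAs with known roles in endothelium and vessel growth. The list holds 24 genes, with Mir126a and Mir126b, and all 24 had a count. It held 15.9% of gene counts in replicate 2 and 17.5% in replicate 1, of which Mir126a was 50.7% and 56.0%. Without Mir126a the list held 7.81% in replicate 2 and 7.70% in replicate 1.

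The clusters of miR-23, miR-27 and miR-24, of which miR-23 and miR-27 promote vessel growth in the mouse eye, gave the next members. Mir23b reached 29004 CPM in replicate 2, against 26006 CPM in replicate 1, and the mean of Mir126a was 3.25 times its mean, or 1223 against 372 CPM per base of hairpin. Mir23a reached 22548 CPM in replicate 2, against 20085 CPM in replicate 1. Both were higher in replicate 2, with log2 ratios of 0.11 and 0.12 (exact binomial test, adjusted p = 5.43e-44 and 2.66e-40). Mir27b had 4265 and 5236 CPM, Mir27a 567 and 669 CPM, Mir24-2 106 and 138 CPM, and Mir24-1 36.6 and 35.4 CPM, replicate 2 before replicate 1. Mir27b, Mir27a and Mir24-2 were lower in replicate 2 by the exact binomial test (log2 ratios −0.34, −0.28 and −0.43) and Mir24-1 did not pass. All 6 genes share 20 bases with at least 1 more microRNA locus, so multi-mapped reads may be missing from their counts.

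The miR-10 genes, which lie in Hox clusters and promote vessel sprouting in zebrafish, differed from each other. Mir10b reached 11018 CPM in replicate 2, against 14103 CPM in replicate 1. Its log2 ratio was −0.40 (adjusted p = 2.54e-258 by the exact binomial test). Mir10a had 3127 and 3064 CPM in the same order and did not pass (−0.02, adjusted p = 0.570 by the exact binomial test). Of the miR-17-92 cluster, whose member miR-92a restrains vessel growth in mice, Mir17 had 2098 and 1985 CPM and Mir20a 765 and 757 CPM. Mir92-1 of that cluster had 447 and 418 CPM. Mir92-2, which lies outside it, had 12.7 and 10.9 CPM. None of these genes passed. Mir92-1 and Mir92-2 each share 20 bases with another locus, with the same limit on their counts. Mir18 of the miR-17-92 cluster was lower in replicate 2, with 214 and 299 CPM (−0.53, adjusted p = 6.61e-10 by the exact binomial test).

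The remaining members were scarcer. Mir130a, which in human endothelial cells represses antiangiogenic homeobox genes, reached 3115 CPM in replicate 2, against 3506 CPM in replicate 1, and was lower in replicate 2 (−0.22). Mir221 and Mir222, which in human endothelial cells repress the receptor gene KIT, had 207 and 165 CPM and 47.5 and 37.5 CPM, and of these Mir221 passed (0.28). Mir132 had 298 and 258 CPM, Mir296 120 and 118 CPM, the hypoxia-induced Mir210 73.3 and 91.5 CPM, and Mir31 36.6 and 24.1 CPM, again replicate 2 before replicate 1. Of these Mir210 was lower (−0.36) and Mir31 higher (0.54) in replicate 2 by the exact binomial test. Mir218-1 and Mir218-2, hosted by the Slit genes, stayed under 10 CPM in both libraries, as did Mir126b. The Mir218 genes also share 20 bases with another locus, and Mir126b does not.

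Of the 24 genes, 21 were tested. The exact binomial test called 4 higher (19.0%) and 8 lower (38.1%) in replicate 2, against 19.0% and 31.8% of all tested genes, and 9 did not pass. When total counts set the library sizes, 6 were higher and 7 lower, against 26.0% and 25.6% of all tested genes. edgeR's exact test, with the same limit as above, called 0 of the 21, with 0 at an unadjusted p under 0.05, and 0 differed by 2-fold. Besides Mir126a, the median log2 ratio of the tested members was −0.01, against −0.04 over all tested genes, and members ran from −0.53 (Mir18) to 0.54 (Mir31). Of these 20 members, 5 had a ratio below that of Mir126a.

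**Figure D5:**
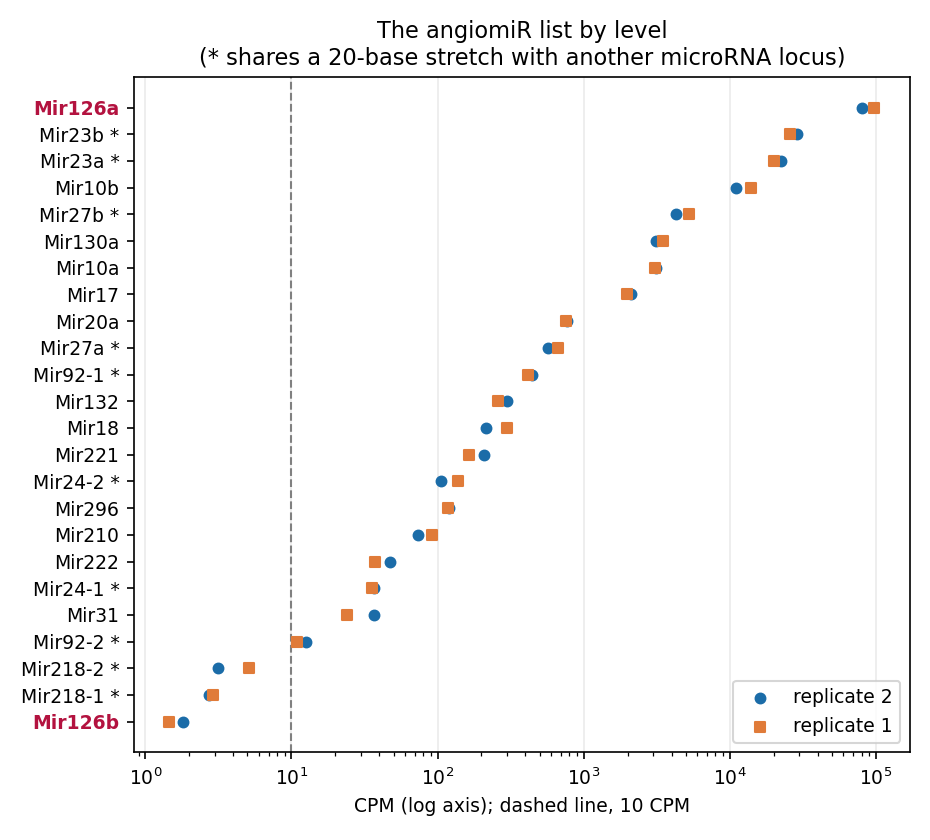
CPM (log axis) of the 24 angiomiR genes in each library, ordered by mean, with a dashed line at 10 CPM, the minimum for the test. Mir126a is at the top at 80432 and 98087 CPM and Mir126b at the bottom at 1.81 and 1.46 CPM.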

How the data were processed

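The deposited values were whole-number counts of reads per microRNA gene, 1 library per table, in separate columns for either, own and opposite strand; own-strand counts were used. Per the labels' protocols and the deposited notes, counts were made on mm10 with annotation M21. The aligner, counter and trimming are not given in the sources used here. The 4 lines that name no gene stayed out of library sizes: unmapped, multi-mapped and outside-gene reads made up 73.0% of replicate 2 and 72.7% of replicate 1. The libraries held 2211254 gene counts (replicate 2) and 2743657 (replicate 1).

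All 2202 identifiers matched GENCODE vM21. CPM, TMM (over all genes with a count), exact binomial tests and edgeR's exact test were computed here with R 4.3.3, edgeR 4.0.16, DESeq2 1.42.0 (size factors) and scipy 1.17.1. The binomial test was tried on simulated data with counting error only, where calls also needed a minimum absolute log2 ratio not used here. That does not show how the test behaves when replicates differ by more than counting error. A threshold of 0.05 was used for adjusted p. Members, lists and the rule for named genes (neighbours in level, angiomiRs at 10 CPM, list leaders, the 5 closest ratios, the 5 largest pairs) were chosen with earlier results of these data known.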

Additional observations from a re-analysis of the deposited data

How the results depend on the processing

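The log2 ratio of Mir126a was negative and past the exact binomial test under 9 other settings of scaling, filter and genes, from −0.44 with all mapped reads as library size, which lowers the ratios of all genes alike, to −0.29 with total gene counts; by edgeR's exact test it was −0.33 with adjusted p = 0.984. Leaving out 1 replicate gave 80432 to 98087 CPM for Mir126a, 1.46 to 1.81 CPM for Mir126b and 15.9% to 17.5% for the angiomiR list. Mir126a was at 0.532 CPM with either strand counted, 7.02 CPM on the opposite strand, 24239 CPM of all reads, 31323 CPM of mapped reads and 120619 CPM without loci that share 20 bases. In the same order Mir126b was at 0, 382810, 0.443, 0.567 and 2.21. The either-strand and opposite-strand values were scaled by the sum of that strand's counts over all genes. They are therefore no share of the own-strand counts. The angiomiR list held 10.1% with either strand counted, 7.76% without Mir126a and 11.2% without members that share 20 bases. With mapped reads as library size, 25 genes were higher and 117 lower in replicate 2. By edgeR's exact test 3 were higher and 0 lower. Leaving out Mir126a gave 48 genes higher and 81 lower. The ratio of Mir126a has no value with either strand counted, where it falls under 10 CPM. Settings with mapped or all reads as size for the counts of genes, without Mir126a, without loci sharing 20 bases, and TMM over tested genes were chosen after seeing the data. No paired analysis was possible because there is 1 group. Mir126b, at 4 counts per library, is limited by depth.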

Other observations

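The hairpins of the pair were also compared by predicted folding with RNAfold 2.7.2. Mir126a had a minimum free energy of −31.2 kcal/mol with 27 base pairs, of which 2 were GU. Mir126b had −19.3 kcal/mol with 21 base pairs, of which 1 was GU. Per base this was −0.427 for Mir126a and −0.333 for Mir126b, against a median of −0.369 over the 2202 hairpins. By this measure 70.8% of hairpins were less stable than Mir126a and 38.8% less stable than Mir126b. These are predictions from sequence with no measurement of structure behind them. The folded stretches also differ in annotated extent, 73 bases for Mir126a and 58 for Mir126b, which ends at its mature strands. The part of this in the difference per base was not tested.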
